A study of Homo sapiens with 4 samples.

Results

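The genes described here are the long noncoding and antisense RNA genes of a whole-transcript Affymetrix array, measured in H1299 cells with and without induced p53. H1299 cells come from a human lung carcinoma of the non-small cell type and have lost their own p53. The members were all genes with a probe set of their own whose symbol marks a noncoding transcript: LINC followed by a number for intergenic RNAs, the endings AS, DT and IT for antisense, divergent and intronic transcripts, SNHG for small nucleolar RNA (snoRNA) host genes, and names starting with MIR or SNOR and ending in HG for host genes of microRNAs or snoRNAs. TP53TG1, MALAT1 and MEG3 were taken by name. This gave 454 genes out of 18417 on the array, namely 206 LINC genes, 185 antisense, 33 divergent and 9 intronic transcripts, 2 snoRNA host genes, 16 microRNA host genes and the 3 genes taken by name. PVT1, GAS5 and H19 were also sought by name and had no probe set carrying that symbol alone, so they were not analysed here. RefSeq classes 446 of the members as long noncoding RNA and 1 as antisense RNA, and 7 were not found in its gene table.

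Both groups compared were H1299 cells of 1 stable line, which carries a tet-on construct that makes wild-type p53, of the mouse by the series title, when doxycycline is present. They were grown in DMEM with tet-free serum. The induced group (2 arrays) received 0.5 µg/mL doxycycline for 24 hours, and the uninduced group (2 arrays) was sampled before induction. The arrays of a group are labelled as technical replicates, so the p-values below reflect array-to-array spread alone, at a precision limited by having 2 arrays a group. No doxycycline-treated cells without the construct were among the samples, and none were kept uninduced for the same 24 hours. Effects of p53, of the drug and of time in culture thus cannot be told apart.

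Long noncoding RNAs are transcripts without a long reading frame, and many are kept in the nucleus. Antisense transcripts are read from the strand opposite a coding gene, divergent transcripts start at a coding gene's promoter and run the other way, and host genes carry microRNAs or snoRNAs that are cut out of the transcript. p53 is a transcription factor that binds its sites near target genes and raises their transcription, and it lowers many cell cycle genes through p21 and the DREAM repressor complex. TP53TG1 and the host gene of the miR-34a microRNA are among the noncoding genes known to respond to it.

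The p53 targets used as a check were higher after induction. CDKN1A, which encodes the p21 inhibitor of cyclin-dependent kinases, had levels of 12.63 and 12.50 log2 units on the induced arrays, against 9.16 and 9.11 on the uninduced arrays. MDM2, the ubiquitin ligase that degrades p53, had 12.70 and 12.76 log2 units on the induced arrays, against 9.84 and 9.85 on the uninduced arrays. The mouse transgene itself was not analysed here. Across genes, Pearson's r was 0.995 between the induced arrays and 0.997 between the uninduced arrays, and 0.917 to 0.921 from one group to the other. Of 11 measured lung epithelial markers, 3 were called, all higher: SCGB1A1, a club cell secretory protein gene, by 2.03 log2 units, the keratin gene KRT8 by 1.145 and the surfactant gene SFTPC by 0.295, the last with a call lost when any 1 array was left out (adjusted p from 0.0636 to 0.195). The keratin gene KRT18 was bright, at 11.04 induced and 11.14 uninduced. CDH1 and EPCAM were dim, at 5.88 and 5.50 induced and 5.89 and 5.45 uninduced, close to 13 marker genes of blood, fibroblasts and endothelium, whose median was 6.30 induced and 6.11 uninduced. Of those 13, 1 was called, CD3E at 0.26 log2 units higher, and lost the call when any 1 array was left out (adjusted p from 0.0632 to 0.183). All 3 mesenchymal markers were called. VIM (12.32 induced, 12.72 uninduced) and CDH2 (10.02 induced, 10.37 uninduced) were lower by 0.40 and 0.345, and FN1 (8.73 induced, 8.43 uninduced) was higher by 0.305. These calls were lost without uninduced array 1 (adjusted p = 0.0650 for VIM, 0.0872 for CDH2 and 0.158 for FN1) or uninduced array 2 (0.0880, 0.116 and 0.133), that of CDH2 also without induced array 1 (0.0519) and that of FN1 without induced array 2 (0.0646). The part of these markers in the noncoding results was not tested.

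Sequences are shown for the members whose values carry the results below. Promoter windows run from 250 bases before to 50 bases after the RefSeq start site (GRCh38.p14), read 5′ to 3′ along the gene. They are given for the noncoding gene with the largest measured rise (LINC00324), for TP53TG1, and for a gene that rose and a gene that fell and hold the p53 half-site consensus there (LINC00417 and MIR17HG). Capitals mark CCAAT or its reverse complement in the first 2 windows and the p53 half-site consensus in the other 2. The windows of LINC00324 and TP53TG1 hold no full match of the p53 half-site consensus. Among members with a window, it was present for 1 of 7 called higher at 2-fold and 1 of 5 called lower at 2-fold.
LINC00324, chr17:8223994-8224293, minus strand: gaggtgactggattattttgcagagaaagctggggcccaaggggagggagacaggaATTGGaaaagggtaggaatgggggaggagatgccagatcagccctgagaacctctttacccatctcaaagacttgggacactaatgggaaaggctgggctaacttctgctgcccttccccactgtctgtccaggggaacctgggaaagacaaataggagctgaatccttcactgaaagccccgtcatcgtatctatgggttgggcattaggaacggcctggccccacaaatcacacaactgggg
TP53TG1, chr7:87345443-87345742, minus strand: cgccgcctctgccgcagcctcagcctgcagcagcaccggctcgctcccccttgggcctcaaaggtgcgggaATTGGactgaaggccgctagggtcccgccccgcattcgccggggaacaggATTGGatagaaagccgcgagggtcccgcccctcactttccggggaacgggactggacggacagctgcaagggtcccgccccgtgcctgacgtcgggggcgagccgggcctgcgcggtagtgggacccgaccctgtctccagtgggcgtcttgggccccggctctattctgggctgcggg
LINC00417, chr13:18740050-18740349, minus strand: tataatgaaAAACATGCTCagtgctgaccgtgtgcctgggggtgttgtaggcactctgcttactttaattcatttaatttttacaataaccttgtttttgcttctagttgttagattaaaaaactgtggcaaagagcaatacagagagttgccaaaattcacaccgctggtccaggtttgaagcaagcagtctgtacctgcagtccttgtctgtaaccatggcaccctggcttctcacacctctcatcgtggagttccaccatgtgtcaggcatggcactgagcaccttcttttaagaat
MIR17HG, chr13:91347437-91347736, plus strand: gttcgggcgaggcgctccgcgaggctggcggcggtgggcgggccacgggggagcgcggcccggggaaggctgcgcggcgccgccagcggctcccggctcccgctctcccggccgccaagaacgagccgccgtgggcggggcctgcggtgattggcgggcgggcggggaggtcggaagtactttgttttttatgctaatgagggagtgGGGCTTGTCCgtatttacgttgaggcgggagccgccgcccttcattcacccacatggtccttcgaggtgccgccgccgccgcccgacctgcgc
The TP53TG1 window shares 271 of its 300 bases with the promoter window of CROT, which lies on the opposite strand. RefSeq promoter windows were found for 327 of the 454 members.

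MIR17HG is the host transcript of the miR-17-92 cluster and MIR31HG that of miR-31. The mature microRNAs are shown because both hosts fell after induction, with the seed (bases 2 to 8), which pairs with target messages, in capitals. The sequences are those of RefSeq (GRCh38.p14).
hsa-miR-17-5p, chr13:91350618-91350640, plus strand: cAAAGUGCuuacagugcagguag
hsa-miR-20a-5p, chr13:91351072-91351094, plus strand: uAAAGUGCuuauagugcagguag
hsa-miR-18a-5p, chr13:91350756-91350778, plus strand: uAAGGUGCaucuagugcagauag
hsa-miR-19a-3p, chr13:91350939-91350961, plus strand: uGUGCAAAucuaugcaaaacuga
hsa-miR-19b-3p, chr13:91351245-91351267, plus strand: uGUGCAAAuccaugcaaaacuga
hsa-miR-92a-3p, chr13:91351361-91351382, plus strand: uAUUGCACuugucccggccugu
hsa-miR-31-5p, chr9:21512158-21512178, minus strand: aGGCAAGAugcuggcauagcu
miR-17-5p and miR-20a-5p share the seed AAAGUGC, and miR-19a-3p and miR-19b-3p share GUGCAAA, whereas miR-18a-5p, miR-92a-3p and miR-31-5p each have a seed of their own in this set.

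Of the 454 noncoding genes, 56 were higher (12.3%, against 20.6% of all genes) and 58 lower (12.8%, against 24.6% of all genes) on the induced arrays (limma's moderated test, two-sided, Benjamini-Hochberg adjusted p under 0.05 over all 18417 genes). These 114 genes are 25.1% of the members, while 45.1% of all genes were called. At 2-fold or more, 13 members were higher (2.86%, against 6.48% of all genes) and 6 were lower (1.32%, against 6.77% of all genes). The 13 that rose at least 2-fold were LINC00324, MIR4697HG, PAPPA-AS1, LINC00417, GAS6-AS1, ZBTB11-AS1, TP53TG1, LINC00174, ASB16-AS1, LINC03129, DLGAP1-AS1, LIF-AS2 and LINC02249. The 6 that fell were MIR17HG, SNHG17, LINC00471, EMC3-AS1, MIR31HG and LINC01446. The median log2 fold change was 0.015 over the members and 0 over all genes, and the median absolute change 0.14 against 0.23. Which direction held more calls depended on the scaling, since 49.1% of the called members were higher as deposited and 61.5% (83 of 135) when each array was centred on its median. The count of called members depended on single arrays as well: it was 74 without induced array 1, 81 without induced array 2, 47 without uninduced array 1 and 48 without uninduced array 2, when 36.7%, 37.5%, 27.4% and 26.9% of all genes were called. Of the 19 members called at 2-fold, 18 kept their call whichever array was left out, and LIF-AS2 did not. Of all 114, 38 did.

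**Figure D1:**
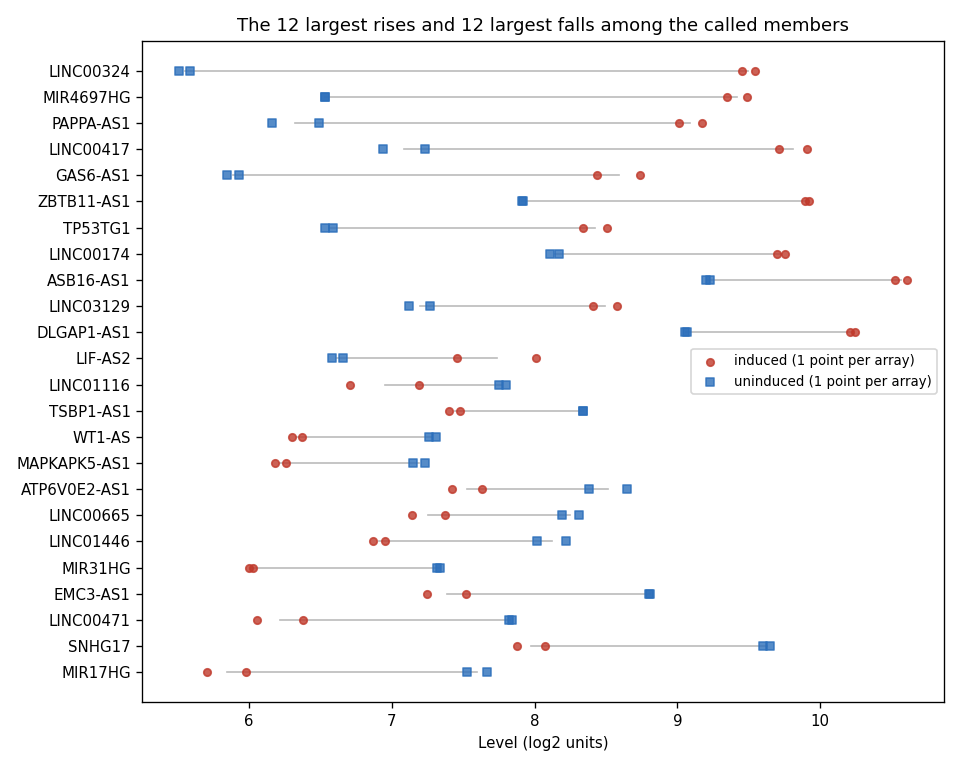
Levels of the 12 largest rises and 12 largest falls among the called members, in log2 units (x axis), 1 point per array, with a grey line between the group means. Only genes whose induced and uninduced points lie apart were eligible, so that separation follows from the choice. The widest gap is that of LINC00324, at 9.45 and 9.54 induced against 5.51 and 5.59 uninduced.

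The probe sets of the noncoding genes were dimmer than most, and the share called followed the level. A probe set's brightness depends on its probe sequences as well as on the RNA, so the levels do not rank genes by abundance. Their median level over the 4 arrays was 6.60 log2 units, against 7.74 over all genes, and 150 of them (33.0%) lay under the marker medians named above in both groups, against 19.1% of all genes. Of the members with a mean level under 6, 11.0% were called (15 of 136), against 10.9% of all genes of that level. Between 6 and 7 the shares were 22.0% of members (36 of 164) and 23.4% of all genes. Between 7 and 8 they were 32.7% (36 of 110) and 43.0%. Between 8 and 9 they were 60.0% (18 of 30) and 66.0%, and from 9 upward 64.3% (9 of 14) and 70.3%. The difference from all genes was thus smaller at a given level than over the whole array, and it was not tested. Of the called members, 16 lay under the marker medians in both groups, and another 17 lay under the marker median in 1 group alone. Of these 17, 5 were called at 2-fold: LINC00324 and GAS6-AS1 in the uninduced group, and MIR17HG, MIR31HG and LINC00471 in the induced group. Whether those dim levels were above background was not tested, so the sizes given below are measured differences and their order is not firm.

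**Figure D2:**
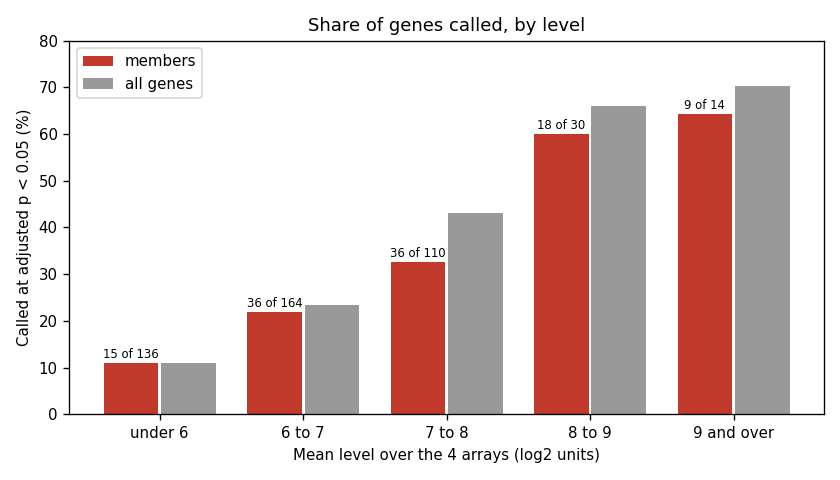
Share of genes called at an adjusted p under 0.05 (y axis, percent) by mean level (x axis, log2 units), for the noncoding members (red, with counts) and all genes (grey). Both shares climb with the level, from 11.0% and 10.9% under 6 to 64.3% and 70.3% at 9 and over.

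**Figure D3:**
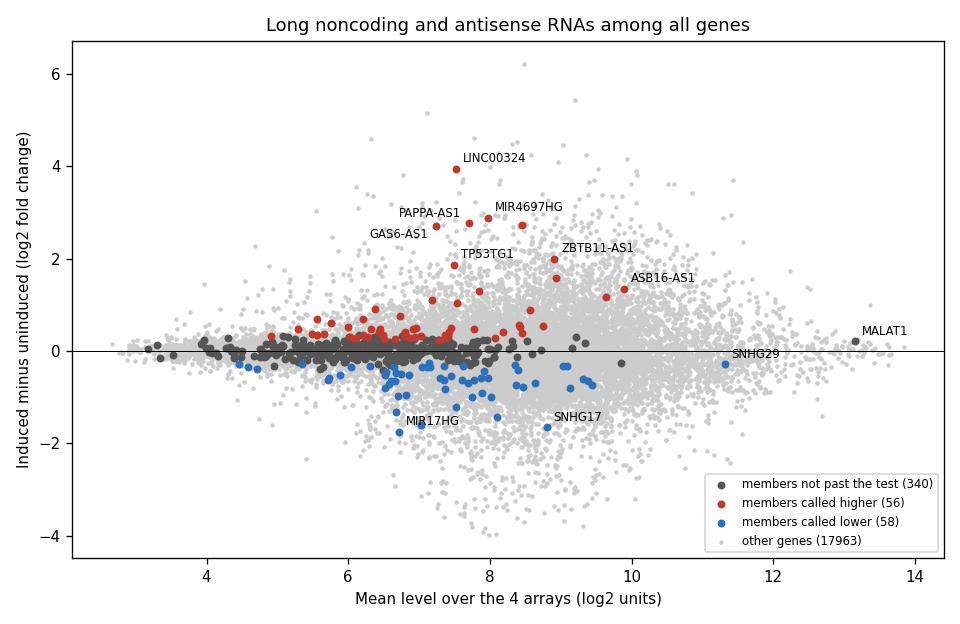
Log2 fold change, induced minus uninduced (y axis), against mean level over the 4 arrays in log2 units (x axis), 1 point per gene, with the 454 members in colour or dark grey and the other 17963 genes in light grey. Most members lie at the dim end with changes near 0, and LINC00324 has the highest measured value among them, 3.95.

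Among the LINC genes, 20 rose and 22 fell of 206, which is 20.4% called, against 45.1% of all genes. Their median log2 fold change was 0.03. LINC00324 (probe set 8012416) had levels of 9.54 and 9.45 log2 units on the induced arrays, against 5.59 and 5.51 on the uninduced arrays. The measured difference was 15.4-fold (log2 fold change 3.95, SE 0.087, adjusted p = 4.8e-07 in limma's test), and its size is uncertain because the uninduced level lay under the marker median. LINC00417 (probe set 8069505) had 9.71 and 9.91 induced, against 6.94 and 7.23 uninduced, 6.61-fold higher. LINC00174 (probe set 8139873) had 9.70 and 9.75 induced, against 8.17 and 8.11 uninduced, 3.0-fold higher. The 2 groups of arrays were far apart for all of these genes. LINC03129 (probe set 8133112) rose 2.46-fold, with 8.41 and 8.58 induced against 7.27 and 7.12 uninduced. LINC02249, the smallest of the 2-fold rises and named after its values were seen, rose 2.06-fold.

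Falls among the LINC genes were smaller. LINC00471 (probe set 8059716) had 6.06 and 6.38 log2 units on the induced arrays, against 7.84 and 7.82 on the uninduced arrays, and fell by 1.61 on the log2 scale (SE 0.12). LINC01446 (probe set 8139699) had 6.87 and 6.95 induced, against 8.02 and 8.22 uninduced, and fell by 1.21 (SE 0.099). LINC00665 (probe set 8036302) had 7.14 and 7.37 induced, against 8.19 and 8.31 uninduced. Its log2 fold change of -0.995 (SE 0.11) was just short of 2-fold. LINC01116 (probe set 8056968) had 7.19 and 6.71 induced, against 7.80 and 7.75 uninduced, and its log2 fold change was -0.825 (adjusted p = 0.00281 in limma's test, SE 0.15). Its 2 induced arrays differed from each other by more than those of the other falls, and the call was lost without uninduced array 1 (adjusted p = 0.122) or uninduced array 2 (0.110).

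Among the antisense transcripts, 26 rose and 21 fell of 185, which is 25.4% called, against 45.1% of all genes. Their median log2 fold change was 0.0050. PAPPA-AS1 (probe set 8163672), antisense within the gene of a metalloprotease that cleaves IGF-binding proteins, had 9.01 and 9.17 log2 units on the induced arrays, against 6.49 and 6.16 on the uninduced arrays. It was 6.80-fold higher (log2 fold change 2.77, SE 0.13, adjusted p = 3.0e-06 in limma's test). GAS6-AS1 (probe set 7972932) had 8.44 and 8.74 induced, against 5.85 and 5.93 uninduced, a measured 6.50-fold, again with an uninduced level under the marker median. ZBTB11-AS1 (probe set 8081358) had 9.92 and 9.89 induced, against 7.92 and 7.91 uninduced, 3.97-fold higher. The arrays of each group agreed closely for this gene and lay far from the other group. ASB16-AS1 (probe set 8015946) had 10.52 and 10.61 induced, against 9.23 and 9.20 uninduced, 2.55-fold higher. DLGAP1-AS1 (probe set 8019954) had 10.21 and 10.24 induced, against 9.07 and 9.05 uninduced, 2.24-fold higher. LIF-AS2 (probe set 8072314) had 8.01 and 7.46 induced, against 6.58 and 6.66 uninduced, 2.17-fold higher. Its induced arrays were 0.55 log2 units apart, and the call was lost without uninduced array 1 (adjusted p = 0.0874) or uninduced array 2 (0.0769).

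EMC3-AS1 (probe set 8077728) was the antisense transcript with the largest fall, with 7.52 and 7.25 log2 units on the induced arrays, against 8.81 and 8.80 on the uninduced arrays (log2 fold change -1.42, SE 0.11, adjusted p = 3.0e-05 in limma's test). ATP6V0E2-AS1 had 7.42 and 7.63 induced, against 8.65 and 8.38 uninduced. MAPKAPK5-AS1 had 6.26 and 6.18 induced, against 7.15 and 7.23 uninduced. These 2 and the next 2 genes fell a little less than 2-fold, with log2 fold changes of -0.99 for ATP6V0E2-AS1, -0.97 for MAPKAPK5-AS1, -0.95 for WT1-AS and -0.90 for TSBP1-AS1. WT1-AS had 6.30 and 6.37 induced, against 7.31 and 7.26 uninduced, and TSBP1-AS1 had 7.40 and 7.48 induced, against 8.34 and 8.34 uninduced.

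Among the divergent transcripts, 5 rose and 4 fell of 33, which is 27.3% called, against 25.1% of all members and 45.1% of all genes. The 9 called ones were under 2-fold, and the class median absolute change was 0.165 log2 units, against 0.14 over all members. CTBP1-DT, which starts beside the gene of the corepressor CtBP1, had 9.03 and 9.11 log2 units on the induced arrays, against 9.87 and 9.75 on the uninduced arrays, a log2 fold change of -0.74 (SE 0.089). C2orf74-DT had 7.98 and 8.02 induced, against 8.71 and 8.76 uninduced, also -0.74 (SE 0.082). Of the 9 intronic transcripts, 1 rose (EHMT1-IT1) and 4 fell (SND1-IT1, BIN3-IT1, AGPAT4-IT1 and ANP32A-IT1). That is 55.6% called, against 45.1% of all genes. ANP32A-IT1 had 7.25 and 7.35 induced, against 8.11 and 7.74 uninduced, and AGPAT4-IT1 had 6.95 and 7.04 induced, against 7.66 and 7.52 uninduced. Their log2 fold changes were -0.63 (SE 0.13) and -0.60 (SE 0.092). The call of ANP32A-IT1 was lost without induced array 1 (adjusted p = 0.151), induced array 2 (0.113) or uninduced array 1 (0.0719). That of EHMT1-IT1 was lost when any 1 array was left out (0.0548 to 0.124), that of SND1-IT1 without uninduced array 1 or 2 (0.0568 and 0.0691), and that of BIN3-IT1 without induced array 1 or 2 (0.0501 and 0.0512) or uninduced array 2 (0.0620). AGPAT4-IT1 kept its call throughout.

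Of the 16 microRNA host genes, 3 rose (18.8%, against 20.6% of all genes) and 5 fell (31.2%, against 24.6% of all genes). The difference from all genes was not tested. MIR4697HG (probe set 7952805), the host of miR-4697, had 9.35 and 9.49 log2 units on the induced arrays, against 6.53 and 6.53 on the uninduced arrays. It was 7.41-fold higher (log2 fold change 2.89, SE 0.089, adjusted p = 8.6e-07 in limma's test). The other rises, of MIR1915HG and MIR646HG, were 0.33 each on the log2 scale, and both calls were lost when any 1 array was left out (adjusted p from 0.0625 to 0.183 for MIR1915HG and from 0.0673 to 0.137 for MIR646HG). MIR17HG (probe set 7969576), whose microRNAs are shown above and whose transcription is known to be driven by MYC and E2F factors, had 5.71 and 5.98 induced, against 7.53 and 7.67 uninduced. Its measured log2 fold change was -1.755 (SE 0.11), or 3.38-fold lower, of uncertain size because the induced level lay under the marker median, and none of its microRNAs had a probe set of its own here. MIR31HG (probe set 8160431), which lies beside the interferon genes of chromosome 9, had 6.0 and 6.03 induced, against 7.32 and 7.34 uninduced, and fell by 1.32 (SE 0.081). MIR31 itself (probe set 8160439), which lies within MIR31HG on the same strand, had 6.72 and 6.78 induced, against 7.74 and 7.82 uninduced, and fell by 1.03 (SE 0.085). MIR9-1HG fell by 0.80 (SE 0.091), and its probe set lists a coding accession. MIR3667HG and MIR4453HG had log2 fold changes of -0.355 and -0.34. The call of MIR4453HG was lost without any 1 array (adjusted p from 0.0609 to 0.157), and that of MIR3667HG without induced array 2 (0.0606), uninduced array 1 (0.148) or uninduced array 2 (0.115). MIR22HG, the host of miR-22, had 8.03 and 8.02 induced, against 7.70 and 7.86 uninduced. Its difference of 0.25 (adjusted p = 0.0644 in limma's test, SE 0.091) did not pass as deposited and passed when each array was centred on its median (adjusted p = 0.0305).

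Both snoRNA host genes fell, where 24.6% of all genes were called lower. SNHG17 (probe set 8066254), which hosts snoRNAs of the SNORA71 family that guide pseudouridylation of RNA, had 7.88 and 8.07 log2 units on the induced arrays, against 9.65 and 9.60 on the uninduced arrays. It fell by 1.65 on the log2 scale (SE 0.096, adjusted p = 8.2e-06 in limma's test), and its other probe set fell by 1.34. The snoRNAs that lie within it did not pass the test as deposited, though SNORA71C (lower) and SNORA71D (higher) passed with an intensity trend in the prior (adjusted p = 0.0160 and 0.0251). SNORA71A had 10.92 and 10.92 induced, against 11.09 and 10.91 uninduced, SNORA71C 11.67 and 11.67 induced, against 11.96 and 11.74 uninduced, and SNORA71D 13.02 and 13.02 induced, against 12.94 and 12.89 uninduced. The 3 copies are closely related in sequence and can share probes. SNHG29 had 11.13 and 11.21 induced, against 11.42 and 11.50 uninduced, which is lower by 0.29 in log2 units (adjusted p = 0.0273 in limma's test, SE 0.086), and lost the call when any 1 array was left out (adjusted p from 0.0600 to 0.195). SNORD49A within it had 7.96 and 8.18 induced, against 9.06 and 9.10 uninduced, and fell by 1.01 (SE 0.10). SNORD49A was the only snoRNA within SNHG29 that was measured, and its measured fall was larger than that of the host. Whether the 2 hosts differ in how host and snoRNA change was not tested.

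TP53TG1 (probe set 8140739), the noncoding gene long known as a p53 target, had 8.51 and 8.34 log2 units on the induced arrays, against 6.59 and 6.53 on the uninduced arrays, 3.64-fold higher. MALAT1, the abundant RNA of nuclear speckles, had 13.22 and 13.29 induced, against 13.00 and 13.09 uninduced. Its difference of 0.21 (adjusted p = 0.0888 in limma's test, SE 0.086) did not pass as deposited. A second MALAT1 probe set was higher by 0.58 (adjusted p = 0.0358 in limma's test over all rows), and the mean of both passed at 0.39. MEG3, an imprinted maternally expressed RNA, had 7.18 and 7.27 induced, against 7.10 and 6.86 uninduced, a difference of 0.25 (SE 0.11, adjusted p = 0.102). MALAT1 and MEG3 also passed when each array was centred on its median (adjusted p = 0.0456 and 0.0472 in limma's test).

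The antisense, divergent and intronic members were next set beside the genes they are named for. Of 227 such members, 203 had a measured partner, 200 genes in all. Of these partners, 57 rose and 45 fell, which is 51.0%, against 45.1% of all genes. Both member and partner were called in 35 pairs, and in 27 of these they moved the same way (14 both higher, 13 both lower). In 8 pairs they moved in opposite directions. The member alone was called in 21 pairs, the partner alone in 68 and neither in 79. Across the 203 pairs the log2 fold changes correlated weakly (Pearson r = 0.15, Spearman rho = 0.18), and all pairs share the same 4 arrays. The median absolute change was 0.14 for the members and 0.27 for the partners. Whether a probe set separates the 2 strands is not given in the sources used here, so a member and a partner that overlap cannot be fully told apart. The gene bodies overlap in RefSeq in 163 of the pairs.

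**Figure D4:**
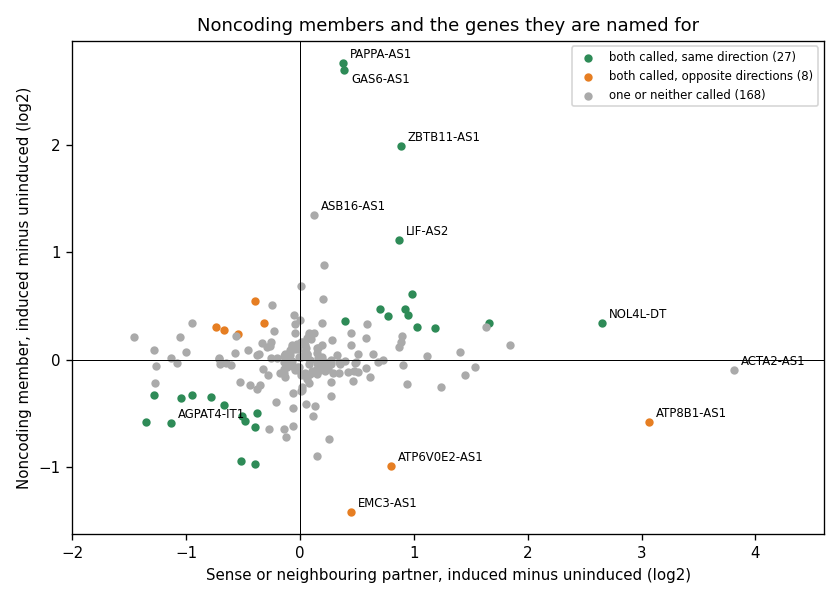
Log2 fold change, induced minus uninduced, of each antisense, divergent or intronic member (y axis) against that of the gene it is named for (x axis), 1 point per pair, for 203 pairs. Green points were both called in 1 direction (27 pairs) and orange points in opposite directions (8 pairs); ACTA2-AS1 and ATP8B1-AS1 lie far right, with large partner rises and no rise of their own.

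Antisense members with the largest rises had measured partners that rose less. These members were chosen for their own rises, so smaller changes of the partners may follow from the choice. Over all 203 pairs the median absolute change was smaller for the members (0.14) than for the partners (0.27). PAPPA had 6.53 and 6.26 log2 units on the induced arrays, against 6.05 and 5.98 on the uninduced arrays, a log2 fold change of 0.38 (SE 0.11), where that of PAPPA-AS1 was 2.77. GAS6, a ligand of the AXL family of receptors, had 8.85 and 9.12 induced, against 8.68 and 8.51 uninduced, 0.39 (SE 0.12), where GAS6-AS1 had 2.70. The GAS6 call was lost when any 1 array was left out (adjusted p from 0.0583 to 0.294). The PAPPA call was lost without induced array 1 (adjusted p = 0.0924), uninduced array 1 (0.178) or uninduced array 2 (0.246). ZBTB11, a zinc finger transcription factor gene, had 10.38 and 10.46 induced, against 9.52 and 9.55 uninduced, 0.89 (SE 0.084). LIF, an interleukin 6 family cytokine and known p53 target, had 7.64 and 7.84 induced, against 6.89 and 6.85 uninduced, and a log2 fold change of 0.87 (SE 0.097) beside 1.12 for LIF-AS2. ASB16 had 8.19 and 7.76 induced, against 7.88 and 7.82 uninduced, and its difference of 0.13 (SE 0.14, adjusted p = 0.541) did not pass, while ASB16-AS1 rose. Without induced array 2 it passed, at 0.34 (adjusted p = 0.0485).

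Partners of the falling members went both ways. EMC3, a subunit of the endoplasmic reticulum membrane protein complex, had 11.29 and 11.29 log2 units on the induced arrays, against 10.88 and 10.80 on the uninduced arrays, and rose by 0.45 (SE 0.083) while EMC3-AS1 fell. The EMC3 call was lost without uninduced array 2 (adjusted p = 0.0662). ATP6V0E2, a subunit of the proton pump of acidic organelles, had 10.28 and 10.14 induced, against 9.50 and 9.32 uninduced, and rose by 0.80 (SE 0.10) while ATP6V0E2-AS1 fell. MAPKAPK5, a stress-activated kinase gene, fell by 0.40 (SE 0.082) and WT1, a zinc finger transcription factor gene, fell by 0.52 (SE 0.15), in the direction of their antisense partners. The WT1 call was lost without induced array 2 (adjusted p = 0.0536), uninduced array 1 (0.267) or uninduced array 2 (0.262), and after quantile normalization again (0.0604). That of MAPKAPK5 was lost without either uninduced array (0.0680 and 0.0795). TSBP1 and CTBP1 did not pass, with differences of 0.15 (SE 0.11) and 0.25 (adjusted p = 0.0552 by limma, SE 0.089). CTBP1 did pass, higher where CTBP1-DT fell, with arrays centred on their medians (adjusted p = 0.0223), with dim probe sets left out (0.0284) and with an intensity trend (0.000839). AGPAT4, an acyltransferase gene, had 6.59 and 6.97 induced, against 7.93 and 7.90 uninduced, and fell by 1.14 (SE 0.13), and ANP32A fell by 0.40 (SE 0.081), both in the direction of their intronic transcripts. The ANP32A call was lost without either uninduced array (adjusted p = 0.0650 and 0.0730).

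Large partner changes were not mirrored by their antisense members in some pairs, which were chosen after their values were seen. ACTA2, smooth muscle actin, had 12.02 and 11.95 log2 units on the induced arrays, against 8.16 and 8.18 on the uninduced arrays, a log2 fold change of 3.82. ACTA2-AS1 had 7.07 and 6.65 induced, against 6.99 and 6.92 uninduced, so that its groups overlapped (log2 fold change -0.095, SE 0.14). ATP8B1, a phospholipid flippase gene, had 11.03 and 11.10 induced, against 7.90 and 8.10 uninduced, 3.07 higher. ATP8B1-AS1 had 7.66 and 7.72 induced, against 8.25 and 8.29 uninduced, and fell by 0.58 (SE 0.083). NOL4L had 8.93 and 9.03 induced, against 6.41 and 6.25 uninduced, 2.65 higher, where the divergent transcript NOL4L-DT had 6.32 and 6.44 induced, against 6.17 and 5.91 uninduced, 0.34 higher (SE 0.11), a call lost when any 1 array was left out (adjusted p from 0.0690 to 0.291).

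Members without a named partner were set beside the nearest protein-coding gene in RefSeq order. Of 221 placed members, 186 had a measured neighbour. Both were called in 20 pairs, in the same direction in 11 and in opposite directions in 9. The member alone was called in 22 and the neighbour alone in 74, so that 22.6% of these members and 50.5% of their neighbours were called, against 45.1% of all genes. A gene nearest to several members, such as AFDN, was counted for each of them. The log2 fold changes of the 186 pairs were nearly uncorrelated (Pearson r = -0.018, across genes on the same arrays). Of the 3 measured genes before MIR31HG, 0 were called, with differences of 0.275 for IFNA13, -0.22 for IFNA2 and -0.03 for IFNA8. MIR31HG and the measured genes that follow it in RefSeq order fell, with log2 fold changes of -0.59 for IFNE, -1.03 for MIR31 and -1.255 for MTAP, a methionine salvage enzyme gene. The gene body of IFNE overlaps that of MIR31HG, and MIR31 lies within it. Whether the probe sets of IFNE and MIR31 read the host transcript was not tested. IFNE was at the dim end, with 3.99 and 4.0 log2 units induced, against 4.54 and 4.63 uninduced. Of the 6 genes around TP53TG1, 5 rose and 1 fell: CROT, a peroxisomal carnitine acyltransferase gene whose promoter window overlaps that of TP53TG1, had a log2 fold change of 0.99 (SE 0.085). TMEM243 had one of 1.01, ELAPOR2 one of 1.96, and ABCB1, the multidrug transporter gene, one of 1.93, while that of DMTF1 was -0.755. The fifth rise, of ABCB4, was 0.29, and its call was lost without induced array 1 (adjusted p = 0.0854), uninduced array 1 (0.142) or uninduced array 2 (0.196). Of the 6 genes around LINC00324, 4 fell. Their log2 fold changes were -2.46 for AURKB, the gene of the mitotic kinase Aurora B, -0.595 for the telomere maintenance gene CTC1, -1.755 for the purine synthesis gene PFAS and -1.265 for SLC25A35. BORCS6 was called higher, by 0.315, and lost the call without induced array 1 (adjusted p = 0.0658), uninduced array 1 (0.166) or uninduced array 2 (0.159), and TMEM107 (0.07) was not called. Of the 6 genes around PAPPA-AS1, 3 rose, with log2 fold changes of 0.70 for the noncoding LINC00474, 0.38 for PAPPA and 0.77 for ASTN2. SNORA70C fell by 0.345, and lost the call without induced array 2 (adjusted p = 0.0729), uninduced array 1 (0.187) or uninduced array 2 (0.147). DELEC1 (-0.055) and TRIM32 (0.095) were not called. The LINC00474 call was lost without uninduced array 1 (adjusted p = 0.0597) or uninduced array 2 (0.0870). Around ZBTB11-AS1, ZBTB11 (0.885) and NXPE3 (0.44) rose, TRMT10C (-0.97) and CEP97 (-1.305) fell, and PCNP (0.03) and RPL24 (0.005) were not called. Around EMC3-AS1, EMC3 (0.45) and CIDECP1 (0.495) rose, CRELD1 (-0.41) fell, and PRRT3 (0.035), FANCD2OS (-0.175) and BRK1 (-0.045) were not called. The CRELD1 call was lost without any 1 array (adjusted p from 0.0515 to 0.0883), that of CIDECP1 without uninduced array 1 or 2 (0.0728 and 0.0659), and that of NXPE3 without induced array 1 or 2 (0.0509 and 0.0540) or uninduced array 2 (0.0772). These 6 neighbourhoods were chosen after their values were seen.

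**Figure D5:**
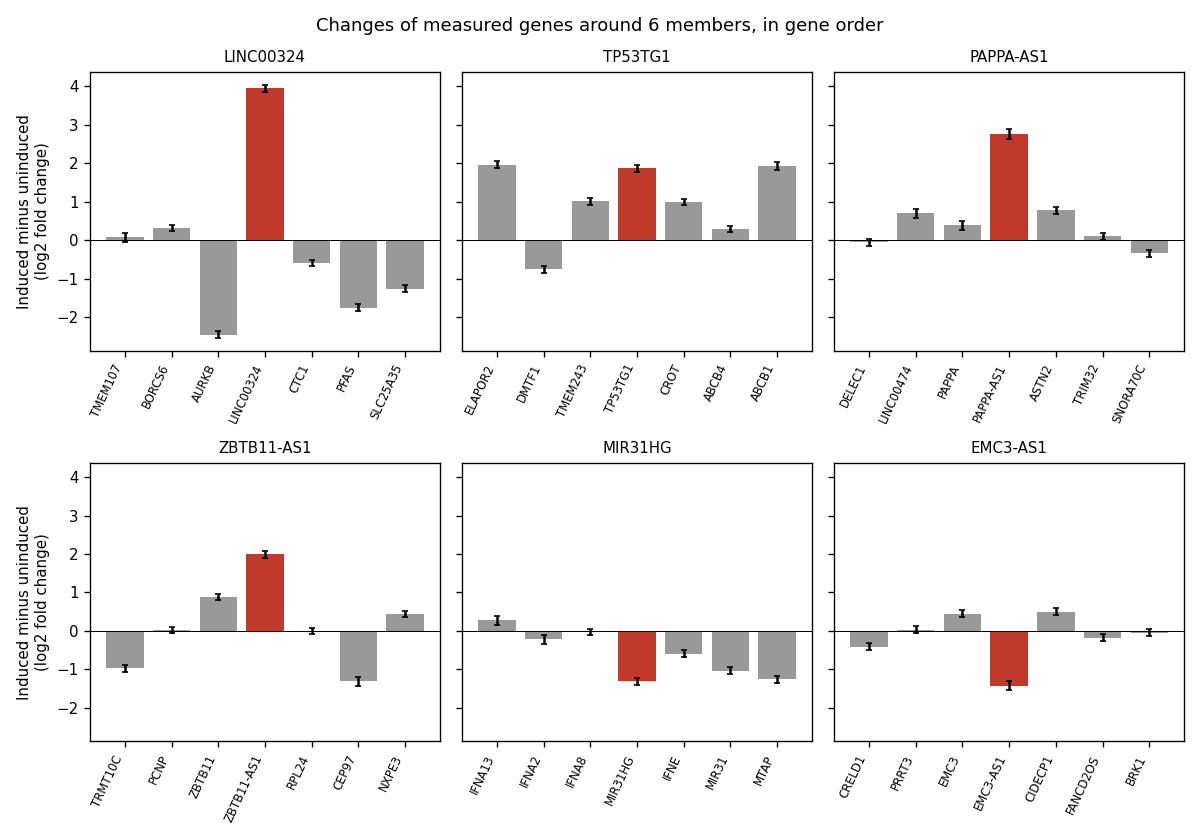
Log2 fold change, induced minus uninduced (y axis, bars with limma's SE), of 6 members (red) and the 3 measured genes on each side in RefSeq gene order (grey). LINC00324 rises by 3.95 beside AURKB at -2.46, and 5 of the 6 neighbours of TP53TG1 lie above 0. MIR31HG falls with the 3 genes to its right, of which IFNE overlaps it and MIR31 lies within it.

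Other long noncoding RNAs, whose symbols the rule does not match, were taken from a list of 33, of which 10 were measured. Of these, 2 rose and 5 fell, which is 70.0% called, against 45.1% of all genes. Their median level was 9.305 log2 units, and of all genes with a level of 9 and over 70.3% were called. DLEU2, a gene of the region of chromosome 13 deleted in leukaemia and host of miR-15a and miR-16-1, had 5.0 and 5.39 log2 units on the induced arrays, against 8.14 and 8.09 on the uninduced arrays, and fell by 2.92 (SE 0.13). The induced level of DLEU2 lay under the marker median, so the size of its fall is uncertain. Its neighbour DLEU1 had 6.68 and 7.24 induced, against 8.66 and 8.75 uninduced, and fell by 1.75 (SE 0.17). These were the 2 members of the list called at 2-fold. TUG1, JPX and the snoRNA host ZFAS1 had log2 fold changes of -0.535, -0.54 and -0.29. Their calls depended on single arrays: that of ZFAS1 was lost without any 1 array (adjusted p from 0.0805 to 0.172), and those of TUG1 and JPX held only without uninduced array 1 (0.0524 to 0.0709 and 0.0631 to 0.0803 without the others). SRA1, a steroid receptor coactivator RNA gene, and RPPH1, the ribonuclease P RNA gene, rose by 0.89 and 0.66. The RNA component genes of telomerase (TERC) and of ribonuclease MRP (RMRP) and the gene UCA1 did not pass, with differences of -0.22, 0.12 and 0.32.

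The promoter windows of the members held the searched motifs about as often as those of other genes. Motifs were searched on both strands, each on its own and regardless of overlap with another, and a member counted once if any of its windows held the motif. The p53 half-site consensus, matched in full, was present for 24 of 327 members (7.34%) and in 6.63% of all 35116 windows. It was present for 5 of 41 members called higher, 2 of 41 called lower and 17 of 245 not called. CCAAT was present for 33.6% of members and in 34.6% of all windows, TTTGAA for 14.1% and in 15.2%, and TTTGGCGC or TTTCCCGC for 2.45% and in 2.27%. These are matches of letters in a short window and were not tested.

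Most members had 1 probe set, and 20 had several. Their probe sets were compared in limma's fit over all rows of the table, not in the fit over genes. Of these 20, 1 (SNHG17) was called in the same direction by all its probe sets, 6 were called by some and 13 by none, and 0 were called in opposite directions. The SNHG29 probe set used above did not pass in that fit (adjusted p = 0.0596 in limma's test). LINC00965 had 26 probe sets, of which some held identical values. The probe sets of 39 members list a coding accession beside the noncoding name. Of those members, 10 were called in the fit over genes, 3 higher and 7 lower. That is 25.6%, close to the 25.1% of all members.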

How the data were processed

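RNA of 4 samples was hybridised to a whole-transcript Affymetrix array. The authors processed the scans with Affymetrix Expression Console and RMA, per the submitters' processing notes. The deposited values are log2 levels per probe set, rounded to 2 decimals, with array medians of 7.26 to 7.33. RMA equalises the arrays' distributions, which hides any shift shared by all transcripts, and no detection call was used. Not given in the sources used here: tool versions, genome build, filters.

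Of 33297 probe sets, the platform annotation gave 1 symbol for 19460, several for 1754 and none for 12083. Each gene was represented by its brightest single-symbol probe set. limma 3.58.1 in R 4.3.3 was fitted over all 18417 genes (lmFit and eBayes without covariates, on 2 residual degrees of freedom, 7.20 after moderation), and the fit was tested on simulated data. Groups came from the sample titles. Called means an adjusted p under 0.05, and 2-fold means 1 or more log2 units in either direction. Probe names are those of the annotation, and 447 of 454 were found in RefSeq's gene table (GRCh38.p14), used to order genes and name neighbours. Figures used Python 3.11.15 with matplotlib 3.10.9.

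The members and lists were chosen with earlier results of these data known. Named members are TP53TG1, PVT1, GAS5, MALAT1, H19, MEG3 and MIR22HG, the 12 largest rises and falls among called members whose groups did not overlap, the 2 largest changes of each class and the 3 brightest, with CDKN1A and MDM2, partner genes, hosted snoRNAs and microRNAs, and members of the other noncoding list called at 2-fold. Alternatives were quantile normalization again, centring on array medians, leaving out dim probe sets (under the 40th percentile), averaging probe sets, testing all rows, limma's treat at 1.2-fold, a robust prior with an intensity trend, a replicate block, dropping each array in turn and updated symbols.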

Additional observations from a re-analysis of the deposited data

Results flagged for a closer look

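Signals also appeared in rows that no comparison above uses. Among 97 probe sets annotated with several genes, at least 1 of them with a symbol that fits the rule for noncoding RNAs, 19 rose and 12 fell by 2-fold or more on the induced arrays (limma, fitted to the whole table, adjusted p under 0.05), and their log2 fold changes ran from -2.72 to 2.27. In the separate fit over genes, 6.48% were higher and 6.77% lower at 2-fold. The share called was 56.7% in these rows and 32.4% in the whole table, which includes 12083 probe sets without a symbol. No share was taken over annotated rows or rows of like level, and the difference was not tested. A row with several symbols cannot be assigned to 1 gene, so none is named. With 2 arrays a group, no array can be singled out as outlying.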

How the results depend on the processing

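The number of members called depended on the setting more than the number called at 2-fold. Against 56 higher and 58 lower, testing all rows of the table gave 34 higher and 46 lower. With limma's treat against a fold of 1.2, 22 were higher and 33 lower. Of all genes, 45.1% were called as deposited, 39.7% with all rows and 29.7% with treat. Treat called 34 sense partners higher and 26 lower, against 57 and 45. With 1 array left out, 20 to 37 members were called higher and 27 to 46 lower, and 33 to 47 sense partners were called higher and 20 to 39 lower. The count of 2-fold rises stayed at 12 or 13 under every alternative, and that of 2-fold falls between 4, without dim probe sets, and 8. No member called as deposited or under an alternative other than updated symbols, which changes only membership, changed sign there. Of the values of named genes, 585 kept their side of the threshold, 42 lost the call and 15 gained one. Quantile normalization again and centring on array medians moved the median of all genes by 0.035 and 0.050. With the replicate number as a block, 47 members were higher and 48 lower, when 42.5% of all genes were called. Of these 95 members, 90 were shared with the fit without the block. The calls of ANP32A-IT1, GAS6 and WT1 were lost and that of CTBP1 was gained (adjusted p = 0.0460 in limma's test). Same-numbered arrays deviated from their group means with a correlation of 0.22, and the labels give the numbers no shared batch, so they share only a number.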
